A study of Mus musculus with 6 samples.

Results

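The 10 genes described here belong to bone morphogenetic protein (BMP) signalling. They are the inhibitor of DNA binding genes Id1, Id2, Id3 and Id4, the BMP antagonist gene Grem1, the ligand gene Bmp4, the receptor genes Bmpr1a and Bmpr2, and the Smad genes Smad6 and Smad9. They were chosen by name, with earlier results of these data known. All 10 were found once each among the 15796 genes of the authors' deposited table. RNA from MC3T3-E1, an established line of mouse pre-osteoblasts, was sequenced. In the control group, 3 libraries (control 1 to 3), labelled WT for genotype, were from cells that received an EGFP plasmid. In the overexpression group, 3 libraries (overexpression 1 to 3) were from cells that received a plasmid carrying Hsd11b1, which encodes the enzyme 11β-HSD1. Cells of both groups were given 11-DHC (11-dehydrocorticosterone), an inactive steroid and the enzyme's substrate for making corticosterone, so no library is without it. The labels give no dose or time of 11-DHC. They do not say whether the plasmid was kept stably, whether the cells were 1 clone, or whether the replicates were separate cultures. The p-values therefore reflect the spread among these 6 samples, which may be technical.

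BMPs are secreted ligands that bring together type I receptors, such as the product of Bmpr1a, and type II receptors, such as the product of Bmpr2. The active receptors phosphorylate Smad1, Smad5 and Smad9, which enter the nucleus with Smad4 and switch on target genes. Id1 to Id3 are among the best known of these targets, and Smad6 is a target that feeds back to inhibit the pathway. Id proteins lack a DNA-binding region and hold basic helix-loop-helix (bHLH) transcription factors in inactive pairs. Gremlin 1 binds BMPs outside the cell and keeps them from their receptors. In bone, BMP signalling is known for driving osteoblast formation. The study asked how 11β-HSD1 in osteoblastic cells bears on bone formation and glucose handling, and the only comparison is overexpression against control.

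The transfected gene was examined first. Hsd11b1 had an FPKM (fragments scaled by exon length and library total, hence a level per length) of 0.275 to 1.90 in the controls and 315 to 345 with overexpression. Depths, recovered from the FPKM as whole reads, ran from 16264239 to 58665308 reads per library, with control 2 and overexpression 3 the deepest of their groups. These 2 libraries also lay apart from the others along the second principal component (-11.8 and -10.4, the others -2.30 or above). In 5 of the 6 libraries, deviations from the group mean were related to the GC content of the transcript across 13091 genes. Spearman's rho was -0.555, 0.531 and 0.0846 for control 1 to 3, the last being the exception, and -0.444, -0.447 and 0.674 for overexpression 1 to 3. Genes are not independent replicates, so these rho values are descriptions. Of 12 osteoblast markers 10 were listed, with a summed FPKM of 3150 to 3470 in controls and 3060 to 3170 with overexpression. Alpl and Bglap were not listed. The listed osteoblast markers went both ways: Runx2, Dlx5 and Sparc (498 and 624) were called higher and Cdh11 (81.0 and 65.6, limma adjusted p = 0.0208) lower. Col1a1 (767 and 632) and Bglap2 (1.80 and 0.739) did not pass, and Ibsp, at 0.105 and 1.03, was not tested. In the authors' deposited table, Ibsp (higher) and Col1a1 (lower) have an adjusted p under 0.05, and Bglap2 does not. Of the other marker lists, 3 of 7 chondrocyte genes summed to 22.6 to 25 in controls and 27.8 to 31.4 with overexpression. Sox9 carried most of that sum and was called higher (18.7 and 24.5, limma adjusted p = 0.00754). Col2a1 (4.63 and 4.26) did not pass, Comp (0.431 and 0.531) was not tested, and Acan and Col10a1 were not listed. Of 6 adipocyte markers only Fabp4 was listed, at 0.132 and 1.28. Fabp4 was not tested here, and in the authors' deposited table it is higher with an adjusted p under 0.05. Macrophage markers (3 of 6 listed) summed to 11.9 to 13.4 and 11.5 to 12.7. Endothelial markers (2 of 6 listed, Pecam1 and Tek) summed to 0.24 to 0.283 in controls and 0.346 to 0.408 with overexpression, and Cdh5 and Kdr were not listed. The only listed skeletal muscle marker, of 6, had 0.401 to 0.625 and 0.443 to 0.51. The part of such cells in the results was not tested.

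All 4 Id genes rose with Hsd11b1 overexpression, Grem1 fell, and the ligand, receptor and Smad genes did not pass the test. Of the 10 genes, 4 were higher and 1 was lower at an adjusted p under 0.05 (limma on log2 of FPKM plus 1, adjusted over 13120 genes). Over all 13120 tested genes, 6.22% were called higher and 5.84% lower. Because the 10 genes were chosen with earlier results of these data known, their count is a description. The median log2 difference of the 10 genes was 0.18, against -0.01 for all tested genes. The 6 libraries' values did not overlap between the groups for 5 of the 10 genes. Over all tested genes, the groups did not overlap for 14.7% with overexpression higher and for 16.1% with overexpression lower. In bulk RNA, a change in the number of cells that make a transcript and a change in the amount per cell cannot be told apart. In the authors' deposited table, the same 5 genes have an adjusted p under 0.05 with the same signs, and the other 5 do not.

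**Figure D1:**
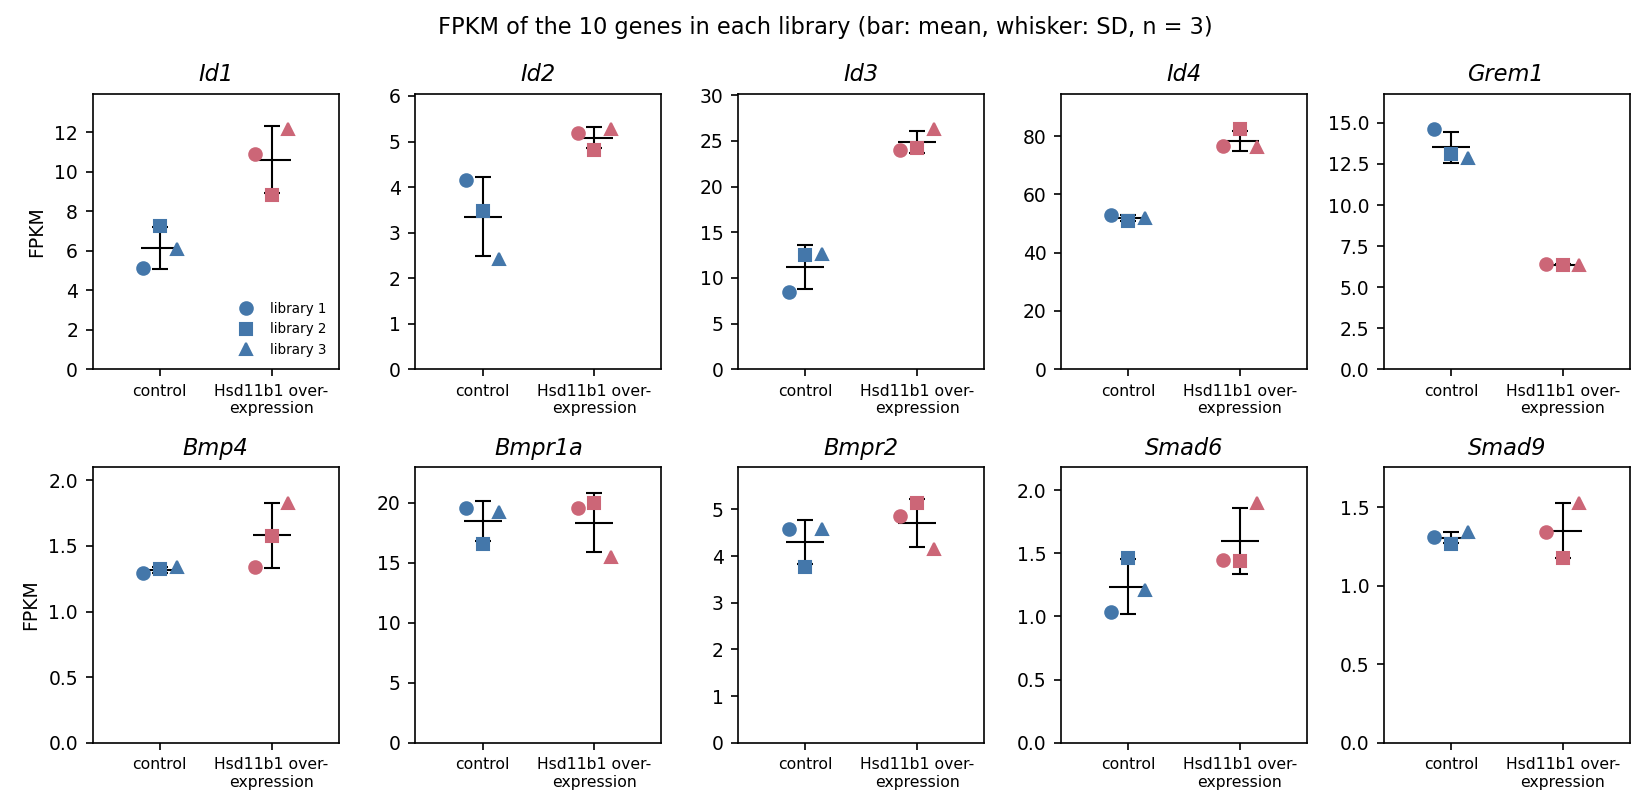
FPKM (y axis, from 0) of the 10 genes in each of the 3 control and 3 overexpression libraries, 1 panel per gene. Marker shapes stand for library 1, 2 and 3 of a group, horizontal bars for the mean and whiskers for the SD (n = 3). The groups are apart for Id1, Id2, Id3, Id4 and Grem1 and overlap for Bmp4, Bmpr1a, Bmpr2, Smad6 and Smad9.

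Id4 was the most abundant of the 10 genes in both groups. It lies on chromosome 13 (48261228 to 48266026, plus strand, GRCm38, the build also called mm10; GENCODE M21 genes throughout). Its FPKM in control libraries 1 to 3 was 52.9, 51.0 and 51.8, against 76.5, 82.3 and 76.4 in overexpression libraries 1 to 3. Every overexpression library was far above every control, and the controls differed little among themselves. On the log2 scale the difference was 0.59 (SE 0.06, limma adjusted p = 0.000715), with a ratio of means of 1.51, from 3241 to 17246 reads per library. Id4 is best known from neural cells, and in mouse cells it is also known to favour osteoblasts over fat cells. Of its exon bases, 4.44% overlap exons of Gm49291, a noncoding RNA gene on the other strand with a mean FPKM of 5.93 in controls and 8.98 with overexpression. The kit marks strand, but the strand setting of the counting is not given in the sources used here, so reads in the shared bases may belong to either gene.

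Id3 showed the largest log2 difference of the 10. Id3, on chromosome 4 (136143497 to 136145755, plus strand), is an Id gene of many dividing mesenchymal cells. Its FPKM in control libraries 1 to 3 was 8.43, 12.5 and 12.7, against 24.0, 24.3 and 26.2 in overexpression libraries 1 to 3. Control 1 stood below the other controls, and the lowest overexpression library was still well above the highest control. Overexpression exceeded control by 1.10 on the log2 scale (SE 0.14, limma adjusted p = 0.00143), and the ratio of means was 2.22, from 301 to 2758 reads per library. It was 0.93 without control 1, the smallest value with any 1 library left out.

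Id1 rose as well, with more spread. Id1, the member most used as a readout of BMP signalling, is on chromosome 2 (152736251 to 152737410, plus strand). Its FPKM in control libraries 1 to 3 was 5.10, 7.23 and 6.10, against 10.9, 8.83 and 12.1 in overexpression libraries 1 to 3. The deepest library of each group was the highest of its group, and the groups did not overlap. Its log2 difference of 0.70 (SE 0.13) had a limma adjusted p = 0.0111, and the ratio of means was 1.73, from 115 to 826 reads per library. Without both of the deepest libraries the difference was 0.72 (adjusted p = 0.0287).

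Id2 passed the threshold narrowly. Id2, on chromosome 12 (25093799 to 25097140, minus strand), encodes an Id protein with roles in many cell lineages. Its FPKM in control libraries 1 to 3 was 4.16, 3.47 and 2.42, against 5.18, 4.82 and 5.26 in overexpression libraries 1 to 3. The controls spread widely, with control 3 lowest on 96 reads, while the overexpression libraries were close together and all above control 1. Its log2 difference of 0.50 (SE 0.14) had a limma adjusted p = 0.0487, and the ratio of means was 1.52. The call held without control 1. It was lost without any other single library (limma adjusted p 0.0757 to 0.126) and also without the 2 deepest libraries (adjusted p = 0.180). Without control 3 the difference was 0.34.

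Within the controls the Id genes did not all move together. Control 1 had the lowest Id1 and Id3 of its group but the highest Id2 and Id4. Control 3 had the lowest Id2 and the highest Id3. With overexpression, library 3 had the highest Id1, Id2 and Id3 but the lowest Id4, by a small margin (76.4 against 76.5 in library 1). Id1 and Id3, with 54.7% and 55.6% GC, thus went together in control 1 and overexpression 3. Id2 and Id4 have 45.1% and 42.6% GC, and the part of GC content in this was not tested. The variation inside a group was not shared by all 4 Id genes, while the difference between the groups had the same sign in all 4.

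The summed FPKM of the Id genes was 70.6, 74.2 and 73.0 in control libraries 1 to 3 and 117, 120 and 120 in overexpression 1 to 3. Id4 made up 71.5% ± 3.13 (SD, n = 3) of the sum in controls and 65.9% ± 2.46 with overexpression, and Id3 made up 15.4% ± 3.02 and 20.9% ± 0.889. Id1 held 8.44% ± 1.25 and 8.92% ± 1.42, and Id2 held 4.63% ± 1.29 and 4.28% ± 0.235. Only for Id3 and Id4 were the shares of all overexpression libraries on 1 side of all controls. The ratio of Id3 to Id4 FPKM in control libraries 1 to 3 was 0.159, 0.245 and 0.245, against 0.314, 0.295 and 0.344 in overexpression libraries 1 to 3. These sums and ratios are descriptions without a test and were chosen after the values had been seen.

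**Figure D2:**
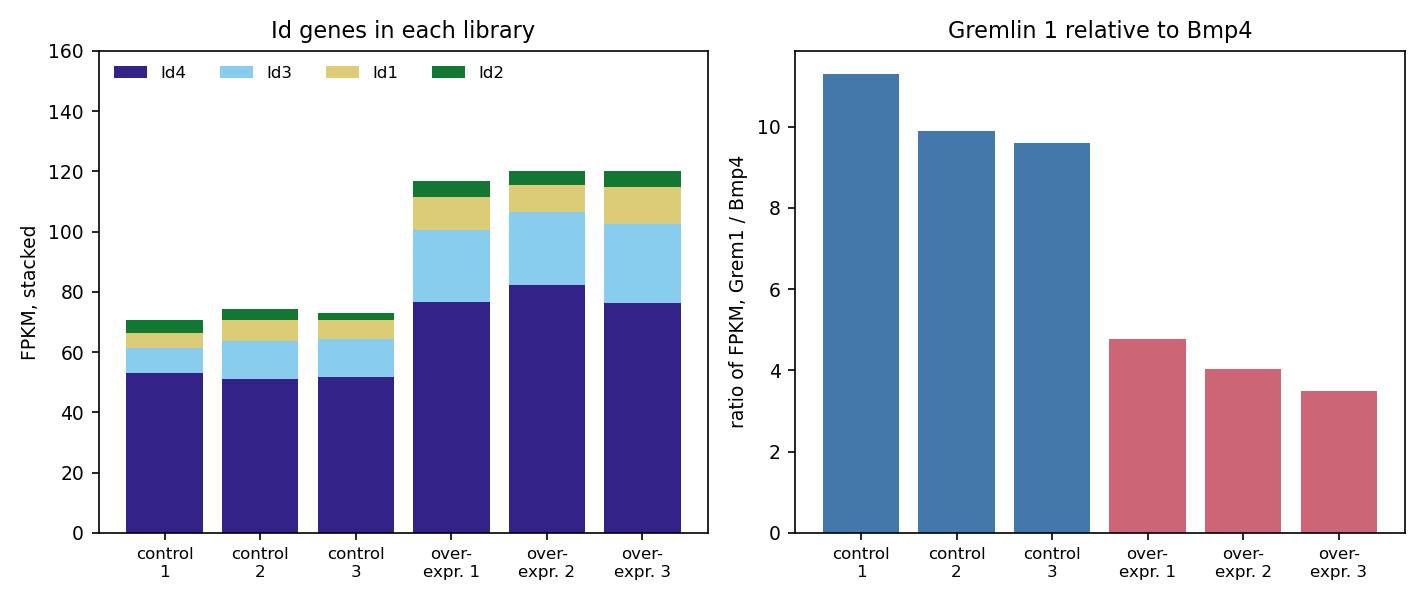
Left, stacked FPKM (y axis, from 0) of Id4, Id3, Id1 and Id2 in each of the 6 libraries. Right, the ratio of Grem1 to Bmp4 FPKM (y axis, from 0) in the same libraries, with 1 bar per library. The Id sums run from 70.6 to 74.2 in controls and from 117 to 120 with overexpression, and the ratio from 9.60 to 11.3 and from 3.48 to 4.77.

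Stretches upstream of the RefSeq start sites of Id4, Id2 and Grem1 are shown because these genes are among the 5 that changed and carry the GC-rich motif GGCGCC, to which BMP-activated Smads are known to bind. The sequences are from RefSeq (build GRCm38.p6), which gave 250 bases before and 50 after the start for 9 of the 10 genes, Id1 being the one without. They are printed 5′ to 3′ on the gene's strand, outside exons annotated for the gene, with the motif in capitals. They cover chr13:48260866-48261115 (plus strand) for Id4, chr12:25096254-25096342 (minus strand) for Id2 and chr2:113758649-113758898 (minus strand) for Grem1. The Id2 stretch of 89 bases lies inside the Id2 gene as GENCODE annotates it, in an intron of a longer transcript, and an exon of that transcript lies between it and the RefSeq start.
Id4: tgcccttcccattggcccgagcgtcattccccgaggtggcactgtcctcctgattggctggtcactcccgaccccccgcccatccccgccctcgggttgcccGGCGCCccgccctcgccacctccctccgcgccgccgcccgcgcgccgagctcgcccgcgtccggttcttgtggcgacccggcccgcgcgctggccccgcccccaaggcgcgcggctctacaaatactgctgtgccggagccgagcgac
Id2: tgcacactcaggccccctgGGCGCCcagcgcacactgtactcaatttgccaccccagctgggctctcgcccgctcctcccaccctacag
Grem1: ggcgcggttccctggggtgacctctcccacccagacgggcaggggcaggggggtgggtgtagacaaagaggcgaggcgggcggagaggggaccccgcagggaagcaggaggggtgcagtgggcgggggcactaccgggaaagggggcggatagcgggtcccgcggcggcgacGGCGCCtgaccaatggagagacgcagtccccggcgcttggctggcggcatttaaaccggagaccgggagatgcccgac

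The motif GGCGCC, which reads the same on both strands, was present in 6 of the 9 windows (Id2, Id4, Grem1, Bmpr1a, Bmpr2 and Smad9) and in 11.9% of all 32851 windows. It was thus found in the windows of genes that rose, a gene that fell and genes that did not pass. The windows are rich in G and C (73.3% for Id4, 63.3% for Id2 and 70.7% for Grem1, against a median of 52.7% over all windows). The Smad-binding palindrome GTCTAGAC was found in the window of Smad6, across its start site, and in 0.213% of all windows. The palindromic glucocorticoid response element, with its less conserved positions free and searched on both strands, was in 0 of the 9 windows and in 0.475% of all. These motifs do not overlap one another in the 9 windows. A match is a description of the letters only.

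Grem1 had the smallest p of the 10 and was the only one that fell. Gremlin 1 is a secreted antagonist of BMP2, BMP4 and BMP7, and in mice its excess in osteoblasts is known to lower bone mass. The gene is on chromosome 2 (113746164 to 113758646, minus strand). Its FPKM in control libraries 1 to 3 was 14.6, 13.1 and 12.9, against 6.38, 6.34 and 6.36 in overexpression libraries 1 to 3. All controls were above 12.8 and the overexpression libraries were almost equal, with an SD of 0.0172. The estimated difference was -0.98 on the log2 scale (SE 0.07, limma adjusted p = 9.48e-05), or 2.12-fold lower by the means, from 484 to 1896 reads per library. With any 1 library left out it ranged from -1.01 to -0.92.

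Bmp4, a ligand that gremlin 1 binds, was low in all libraries. Bmp4 (chromosome 14, 46383520 to 46390669, minus strand) had an FPKM of 1.29, 1.32 and 1.34 in control libraries 1 to 3, against 1.34, 1.57 and 1.83 in overexpression libraries 1 to 3. Overexpression 1 lay within the controls and the others above them. The log2 difference was 0.15 (SE 0.09, 95% interval -0.06 to 0.36, limma adjusted p = 0.368) on 49 to 241 reads per library. The interval includes small changes in either direction, and the part of depth in its width was not tested. The FPKM of Grem1 was 11.3, 9.88 and 9.60 times that of Bmp4 in control 1 to 3 and 4.77, 4.03 and 3.48 times in overexpression 1 to 3. This ratio, chosen after the values had been seen, was lower in every overexpression library than in every control, and most of its change lay in Grem1.

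**Figure D3:**
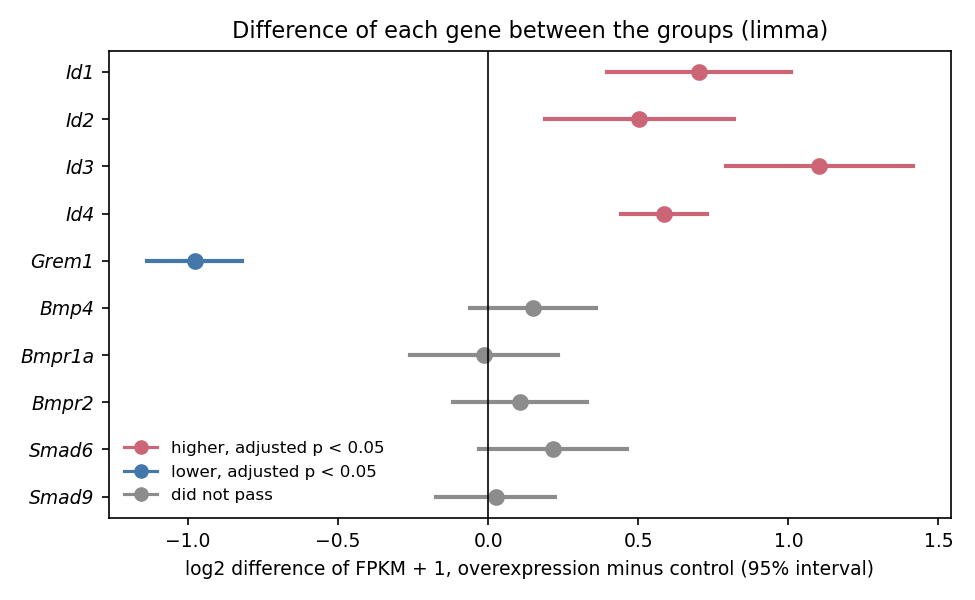
Log2 difference of FPKM plus 1 (x axis, overexpression minus control) for the 10 genes, with points for the limma estimate and lines for its 95% interval. Red marks genes that were higher, blue lower and grey those that did not pass. Intervals of the 4 Id genes lie above 0 and that of Grem1 below, from -1.14 to -0.82, while the other 5 include 0.

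The receptor genes did not pass the test. Bmpr1a, the type I receptor gene on chromosome 14 (34410734 to 34503341, minus strand), had an FPKM of 19.6, 16.6 and 19.3 in control libraries 1 to 3, against 19.5, 19.97 and 15.5 in overexpression libraries 1 to 3. The deepest library of each group was its lowest, and the other 4 libraries lay between 19.3 and 19.97. The log2 difference was -0.01 (SE 0.11, 95% interval -0.26 to 0.23, limma adjusted p = 0.954). Its sign changed with control 1, control 3 or overexpression 3 left out. Of its exon bases, 4.57% overlap the antisense gene Gm17110, at a mean FPKM of 6.84 in controls and 7.21 with overexpression.

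Bmpr2, the type II receptor gene on chromosome 1 (59763400 to 59879014, plus strand), had an FPKM of 4.57, 3.76 and 4.58 in control libraries 1 to 3, against 4.85, 5.14 and 4.14 in overexpression libraries 1 to 3. As with Bmpr1a, control 2 and overexpression 3 were the lowest of their groups. The log2 difference was 0.11 (SE 0.10, 95% interval -0.12 to 0.33, limma adjusted p = 0.563). Both receptor genes were well counted, with at least 1339 reads for Bmpr2 and 1989 for Bmpr1a in every library.

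Among the Smad genes, Smad6, the inhibitory Smad (chromosome 9, 63953076 to 64022059, minus strand), had an FPKM of 1.03, 1.46 and 1.21 in control libraries 1 to 3, against 1.45, 1.44 and 1.90 in overexpression libraries 1 to 3. The groups overlapped only through control 2, and the deepest library was again the highest of each group. The log2 difference was 0.22 (SE 0.11, 95% interval -0.03 to 0.46, limma adjusted p = 0.260) on 63 to 357 reads per library. Smad9, which encodes a receptor-activated Smad (chromosome 3, 54755582 to 54801257, plus strand), had an FPKM of 1.31, 1.27 and 1.34 in control libraries 1 to 3, against 1.34, 1.18 and 1.53 in overexpression libraries 1 to 3. The overexpression libraries lay on both sides of the controls, and the log2 difference was 0.02 (SE 0.09, 95% interval -0.17 to 0.22, limma adjusted p = 0.901).

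The order of levels differed between the groups. In controls it ran Id4, Bmpr1a, Grem1, Id3, Id1, Bmpr2, Id2, Bmp4, Smad9 and Smad6, and with overexpression Id4, Id3, Bmpr1a, Id1, Grem1, Id2, Bmpr2, Smad6, Bmp4 and Smad9. Neighbours whose libraries overlapped were Bmpr2 and Id2, and the last 3, in both groups. All other neighbours had ranges that did not overlap. Grem1 was above Id3 in every control library and below Id1 in every overexpression library.

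The deepest library of each group sat low for members of low GC content and high for members of high GC content. Bmpr2 and Bmpr1a, with 41.0% and 41.3% GC the lowest of the 10, were 0.23 and 0.22 lower on the log2 scale in control 2 than in the other controls. They were 0.22 and 0.33 lower in overexpression 3 than in the other overexpression libraries. Id1 (54.7% GC) was 0.32 and 0.28 higher, and Smad6 (60.8% GC) 0.22 and 0.25 higher, in the same libraries. Id4 (42.6%) and Grem1 (44.7%) moved by at most 0.06 in either. Bmp4 (52.5%) and Smad9 (48.0%) were higher in overexpression 3 (0.20 and 0.16) but not in control 2 (0.0041 and -0.03). In a fit added after seeing the data, which removed each library's trend on GC, the differences were 0.68 for Id1, 0.54 for Id2, 1.08 for Id3, 0.64 for Id4 and -0.94 for Grem1. All 5 kept their calls in that fit (limma adjusted p at most 0.0252), and the other 5 still did not pass.

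**Figure D4:**
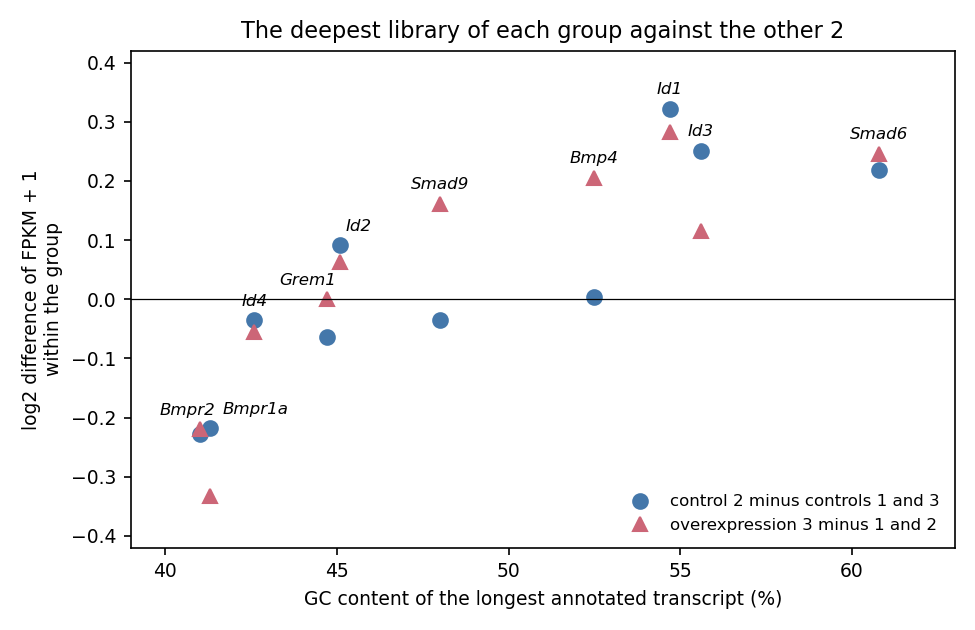
Log2 difference of FPKM plus 1 (y axis) between the deepest library and the other 2 of its group, against the GC content of the longest annotated transcript in percent (x axis), for the 10 genes. Circles are control 2 and triangles overexpression 3. Bmpr2 and Bmpr1a lie at the low end of both axes, at -0.22 or below, and Id1, Id3 and Smad6 at the high end, all above 0.1.

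The other genes of the pathway were taken from 6 lists of 85 genes, of which 64 were listed and 58 were tested. Of the 58, 13 were higher, 3 were lower and 42 did not pass, against 6.22% higher and 5.84% lower over all tested genes. These lists too were chosen with earlier results of these data known, so the counts are descriptions. The median log2 difference was 0.03. The higher genes numbered 6 to 9 with 1 library left out, and the lower ones 1 to 3. Calls named below held with each library left out unless it is said otherwise.

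Of 12 further ligand genes, 3 were listed and 2 tested, with Bmp2, Bmp5 and Bmp7 among those not listed. Gdf6, a BMP family ligand of joints and skeleton, rose from an FPKM of 1.09 ± 0.0244 to 1.96 ± 0.209 (SD, n = 3; log2 difference 0.50, limma adjusted p = 0.00597). Bmp8b had 1.24 and 1.19 (adjusted p = 0.946). Of 10 receptor and co-receptor genes, 6 were tested, 2 were higher and 4 did not pass. Rgma, a BMP co-receptor, rose from 4.55 to 6.30 (adjusted p = 0.0341), a call kept without control 3 but lost without any of the others (up to 0.0954). Eng, which encodes endoglin, rose from 1.17 to 1.72 (adjusted p = 0.0308), a call that ended with each library left out (up to 0.0948). Endoglin is also abundant in endothelial cells. Their higher marker sum given above rests on Pecam1 and Tek alone, both under the mean FPKM of 1 needed for a test. Any part of such cells in this rise was not tested. The type I receptor gene Acvr1 had 10.5 and 10.8 (adjusted p = 0.744), and Neo1, which encodes neogenin, a receptor for RGM proteins, had 15.0 and 17.6 (adjusted p = 0.0949).

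No other secreted inhibitor or modulator that was tested was called lower along with Grem1. Of 18, 11 were tested, 4 were higher, 0 lower and 7 did not pass, with Nog and Sost among those not listed. Bmper, a secreted BMP-binding modulator, rose from an FPKM of 6.66 ± 0.0851 to 11.1 ± 0.862 (SD, n = 3; log2 difference 0.65, limma adjusted p = 0.000854). Nbl1, an antagonist of the same family as gremlin, rose from 19.1 to 25.8 (adjusted p = 0.0302), a call kept without control 2 but lost without any of the others (up to 0.0903). Fstl1, a follistatin-like protein gene, rose from 43.9 to 55.1 (adjusted p = 0.0170), a call that ended without control 3, overexpression 1 or overexpression 2 (up to 0.0764). Dand5, a gremlin family gene, rose from 2.06 to 2.82 (adjusted p = 0.0239) but was not called once any library was removed (up to 0.0808). Twsg1, which encodes twisted gastrulation, had 32.05 and 28.6 (adjusted p = 0.209).

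Among 20 Smads and intracellular regulators, 19 were tested, 2 were higher, 1 lower and 16 did not pass. The BMP-activated Smad genes Smad1 (2.65 and 2.46, limma adjusted p = 0.565) and Smad5 (6.64 and 6.58, adjusted p = 0.946) did not pass, nor did their partner Smad4 (18.3 and 18.1, adjusted p = 0.930). These 3 were named after their values were seen. Tob2, of a family that restrains growth and Smad signalling, rose from 12.7 ± 1.25 to 20.97 ± 2.08 (SD, n = 3; adjusted p = 0.00240). Smurf2, a ubiquitin ligase that acts on Smads and receptors, rose from 21.7 to 30.4 (adjusted p = 0.00662). Smad3, which carries TGF-beta rather than BMP signals, fell from 15.6 ± 0.381 to 12.2 ± 0.110 (SD, n = 3; adjusted p = 0.00819). The most abundant genes of the list were Ctdsp2, a phosphatase gene (90.8 and 94.9, adjusted p = 0.676), and Fkbp1a, whose product binds type I receptors (52.7 and 50.5, adjusted p = 0.691).

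Of 12 other BMP target genes, 7 were tested, 3 were higher and 4 did not pass, with Hey1 and Dlx3 not listed. Atoh8, a bHLH factor gene induced by BMP in several cell types, rose from an FPKM of 2.31 ± 0.525 to 5.20 ± 0.577 (SD, n = 3; log2 difference 0.92, SE 0.13, limma adjusted p = 0.00248). The osteoblast factor gene Dlx5 rose from 12.4 to 15.9 (adjusted p = 0.0180), a call that ended without overexpression 1 or 3 (up to 0.0748). Runx2 rose from 12.1 to 14.6 (adjusted p = 0.0442), a call that ended with each library left out (up to 0.168). Junb, an AP-1 factor gene, had 13.9 and 15.3 (adjusted p = 0.544). The others that did not pass were Msx1 (1.32 and 1.35, adjusted p = 0.952), Sp7 (1.76 and 1.84, adjusted p = 0.821) and Dlx2 (2.56 and 3.22, adjusted p = 0.115). Those were named after their values were seen.

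Of 13 genes for bHLH factors and other proteins tied to Id proteins, all were tested, 1 was higher, 2 were lower and 10 did not pass. The E protein genes Tcf3, Tcf4 and Tcf12, the main partners that Id proteins hold, summed to an FPKM of 48.5, 53.7 and 57.0 in control 1 to 3. They summed to 47.9, 47.1 and 51.9 in overexpression 1 to 3, which overlaps the controls. Tcf3 alone had 34.9 and 32.3 (limma adjusted p = 0.613). The Id sum was 1.46, 1.38 and 1.28 times the E protein sum in control 1 to 3 and 2.43, 2.55 and 2.31 times in overexpression 1 to 3, a ratio of transcripts chosen after the values had been seen. Mxd4, a bHLH partner of Max, rose from 19.0 ± 1.53 to 32.1 ± 0.501 (SD, n = 3; adjusted p = 0.000509). Bhlhe40 fell from 23.2 to 18.3 (adjusted p = 0.0129), a call that ended without overexpression 2 (0.0671). The Notch target Hes1 fell from 1.82 to 0.924 (adjusted p = 0.0134), a call that ended without overexpression 1 or 2 (up to 0.0540).

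**Figure D5:**
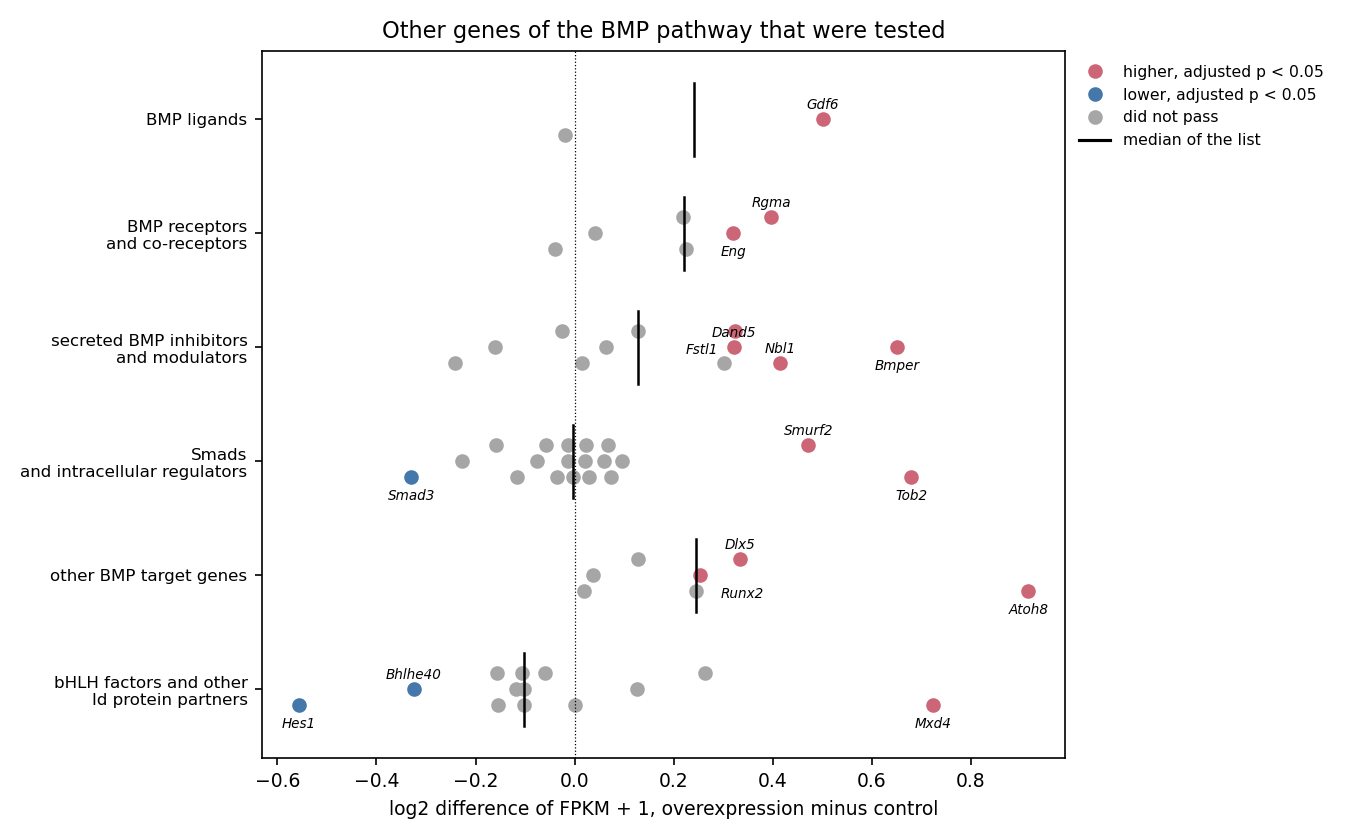
Log2 difference of FPKM plus 1 (x axis, overexpression minus control) for the 58 tested genes of 6 pathway lists (y axis), 1 point per gene. Red points were higher and blue lower at an adjusted p under 0.05, grey points did not pass, and black lines are list medians. Atoh8 lies farthest to the right at 0.92 and Hes1 farthest to the left at -0.56.

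The genes whose pattern over the 6 libraries was most like that of a member were ranked by Pearson's r of log2 FPKM plus 1. Members, pseudogenes and predicted genes with Gm or Rik names were left out, while clone-named genes such as AC164433.2 were kept. All points share the libraries and the group difference, so r is a description. For Id4 the most alike genes were Cxcl12 (r = 0.999), Rab7 (0.999) and Zfp521 (0.998). For Id3 they were Ehd2 (0.999), Sec14l1 (0.997) and Zfand3 (0.997), and for Id1 Plin3, Ftsj1 and Tax1bp3 (all 0.996). The genes nearest to Grem1 were Tbl2 (0.998), Pclaf (0.998) and Dsn1 (0.997). For Bmp4 they were Tmem95 (0.980), AC164433.2 (0.979) and Zfp428 (0.972). A like pattern does not mean a like size of change. Rab7 (0.60) and Zfp521 (0.58) had log2 differences close to the 0.59 of Id4, and Pclaf had -0.83 beside the -0.98 of Grem1. Tbl2 had -0.31. Zfand3 had a log2 difference of 0.54 and Ehd2 of 0.30, while Id3 had 1.10. Plin3 had 0.20 (limma adjusted p = 0.112), while Id1 had 0.70.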

How the data were processed

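RNA sequencing values of 3 control and 3 overexpression libraries were used. Per the submitters' processing notes, cutadapt 2.5, HISAT2 2.1.0, featureCounts 1.6.3 and the build mm10 were used. The annotation release, strand setting and authors' differential test were not given in the sources used here. FPKM of 15796 genes were deposited by the authors, with a log2 fold change and p-values of their own comparison (the authors' p-value and adjusted p-value columns). Their separate list of selected genes was not used here.

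Reads were recovered as FPKM times exon length (GENCODE M21, 15776 genes) times the total that made the products whole. Of values up to 1000 reads, 93.7% to 94.9% per library were whole within 0.05, and so were all values of the 10 genes. Groups were compared with limma 3.58.1 (R 4.3.3; lmFit, eBayes with a trend, two-sided, Benjamini-Hochberg) on log2(FPKM + 1), over the 13120 genes whose mean FPKM reached 1, without covariates. The added 1 makes log2 differences of low genes smaller. The 10 genes all passed that filter. The script was tested on simulated data.

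The genes and lists were chosen with earlier results of these data known. Named genes are the 10 members, Hsd11b1, up to 4 called genes with the smallest p and the 2 most abundant of each list, and the 3 most alike in pattern to Id1, Id3, Id4, Grem1 and Bmp4. Others were named after their values were seen. Alternatives were other pseudocounts, filters and scalings, no trend, a replicate block, arrayWeights and libraries left out. Limma voom on recovered reads, a GC correction and a fit without the 2 deepest libraries were chosen after seeing the data.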

Additional observations from a re-analysis of the deposited data

How the results depend on the processing

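The calls and directions of Id1, Id3, Id4 and Grem1 held in all 18 alternatives, with log2 differences of 0.49 to 0.82, 0.89 to 1.19, 0.55 to 0.64 and -1.08 to -0.70. Bmp4, Bmpr2 and Smad6 did not pass in any of their 17. Id2 was not called with a pseudocount of 0.1 (0.62, adjusted p = 0.0545), no filter (0.50, adjusted p = 0.0621), limma without a trend (0.50, adjusted p = 0.0508) or without the 2 deepest libraries (0.51, adjusted p = 0.180). With 1 library left out its difference was 0.34 to 0.64. Bmpr1a changed sign with arrayWeights (0.0264), the GC correction (0.0503) and without the 2 deepest libraries (0.0235), and ran from -0.0874 to 0.0962 with 1 library left out. Smad9 changed sign with arrayWeights (-0.0250) and without the 2 deepest (-0.0405), and ran from -0.0289 to 0.0783. The causes were not tested. Fits that leave libraries out also have fewer samples, and the part of that was not tested either. Over all genes, the counts of higher and lower genes were 1357 and 1403 with arrayWeights and 1297 and 1162 with the GC correction. Without the 2 deepest libraries 478 were lower. With 1 library left out, 483 to 719 were higher and 412 to 618 lower. Of the pathway lists, 7 genes were higher without the 2 deepest, 6 to 9 were higher and 1 to 3 lower with 1 library left out, and 5 were lower with arrayWeights.

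No pairing by replicate number was seen: same-numbered libraries correlated at 0.21, -0.29 and -0.03 in their deviations across genes. Control 2 and overexpression 3, the deepest of their groups, correlated at 0.42, and such a shared deviation could hide a pairing. The check therefore cannot exclude one. With the replicate block, the differences of the 10 genes were as before and 4 were higher and 1 lower, with Id2 at adjusted p = 0.0428. The pathway lists then had 10 higher and 3 lower genes. With a minimum mean FPKM of 5, Id2, Bmp4, Bmpr2, Smad6 and Smad9 were not tested. Several genes had few reads per library, with 49 to 241 for Bmp4, 63 to 357 for Smad6 and 96 to 753 for Id2. Id1 had 115 to 826 and Smad9 117 to 481. The part of depth in the precision was not tested.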
